A study of Mus musculus with 4 samples.

Results

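The genes described here are 40 enzymes and regulators of the mitochondrial matrix and its borders: the pyruvate dehydrogenase complex with its kinases and phosphatase, pyruvate carboxylase, the tricarboxylic acid (TCA) cycle with part of the malate-aspartate shuttle, and mitochondrial fatty acid oxidation. They were chosen by symbol, and all 40 were found among the 23390 gene models of the count table. RNA came from mouse osteoclast cultures, that is, from macrophages grown out of wild-type (Wt) C57BL/6J bone marrow with M-CSF from L929 cell supernatant and then stimulated with 40 ng/ml of the osteoclast-inducing cytokine RANKL. One group of 2 libraries received 10 µM BMS-582949, an inhibitor of the kinase p38α, and the other group of 2 libraries received the solvent DMSO. Both groups carried the same M-CSF and RANKL treatment, and RNA was taken on day 4. The study asked what the inhibitor does while osteoclasts form, and nothing in the labels tells if a group's libraries are from different mice or dishes. The p-values therefore cover the spread among these 4 libraries alone, which may be technical.

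Pyruvate made by glycolysis enters the mitochondrion and is either oxidised to acetyl-CoA by pyruvate dehydrogenase or carboxylated to oxaloacetate by pyruvate carboxylase. Acetyl-CoA is also the end product of fatty acid oxidation, in which acyl chains are shortened by repeated rounds of dehydrogenation, hydration, dehydrogenation and thiolysis, and both supplies are burned in the TCA cycle to feed electrons to the respiratory chain. Osteoclasts are known as cells rich in mitochondria, and their resorption of bone demands much ATP.

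The libraries held 37455168 to 39255925 counts with BMS-582949 and 35331889 to 36178333 with DMSO. Levels are given as CPM, the gene's share of the library on a fixed total, scaled by TMM, a method that corrects for library composition. The 10 osteoclast markers checked, among them Acp5 and Ctsk, were all expressed, with a summed level of 12156 and 12315 CPM with BMS-582949 and 99133 and 103354 CPM with DMSO, and all 10 were called lower. Of 9 macrophage markers 5 were called higher (Adgre1, Mrc1, Cx3cr1, Mertk and Itgam) and 2 lower (Csf1r and Cd68). Their sum was 2925 and 3109 CPM with BMS-582949 against 5736 and 5981 CPM with DMSO. Most of it came from the 2 called lower, with DMSO means of 1977 CPM for Csf1r and 3464 CPM for Cd68. All 5 of 5 cell cycle markers were called higher (911 and 937 CPM against 280 and 272 CPM). Of 6 stromal and adipocyte markers 4 had enough counts to test and 3 were called lower. Their sum was 453 and 459 CPM against 705 and 645 CPM, with Cfd at 0 in every library. Of 6 neutrophil markers 5 were tested and 1 was called lower (11.9 and 15.1 CPM against 18.4 and 17.9 CPM, with Ly6g at 0). Beside all these marker counts go the shares of all genes tested, 29.7% called lower and 30.5% called higher. B cell, erythroid and T and NK cell markers summed to at most 2.12 CPM in any library. Genes encoded by the mitochondrial genome took 3.60% and 4.07% of all counts with BMS-582949, against 6.52% and 5.85% with DMSO. These shifts went with the results below, the fall of most of the 40 genes included, and their part in them was not tested. In bulk RNA, fewer osteoclasts and less RNA per cell cannot be told apart.

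Most of the matrix oxidation genes were lower with BMS-582949. Of the 40, 34 fell, 3 rose (Pcx, Acsl1 and Pdp1) and 3 were not called (Idh2, Cpt1a and Hadh) at a Benjamini-Hochberg adjusted p under 0.05 in edgeR's quasi-likelihood test over all 13214 genes. That is 85.0% of the members called lower, where 29.7% of all genes tested were, and 7.5% called higher, where 30.5% were. The list was chosen with earlier results of these data known, so this contrast is a description and not a test of the list. The median log2 fold change was -0.89 over the 40 genes and 0.03 over all genes tested, and it ran from -2.18 for Acaa2 to 0.84 for Pcx. In 15 genes the fall was at least 2-fold, as in 11.3% of all genes tested, and no member rose as much (9.94% of all genes did). The 2 BMS-582949 libraries lay below both DMSO libraries for 34 genes and above both for 6, so no member overlapped between groups. Over all genes tested, the corresponding shares were 38.7% and 41.4%.

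The size of the falls depends on the scaling. With no scaling but library size, the median of all genes moved to 0.41, 29 of the 40 were called lower (17.0% of all genes were) and 6 higher (51.0%). The member median was then -0.51, which lies 0.92 below the median of all genes, as the TMM value also does, since a scaling factor shifts every gene alike. With upper-quartile scaling 34 members were lower (27.3% of all genes) and 5 higher (33.7%), and with a replicate block 34 (29.0%) and 3 (29.7%). Without BMS-582949 replicate 1, BMS-582949 replicate 2, DMSO replicate 1 or DMSO replicate 2, 34 were lower each time, where 28.1%, 28.6%, 26.0% and 25.6% of all genes were. In the same order 2, 3, 3 and 2 members were higher, where 26.9%, 26.5%, 26.9% and 27.1% of all genes were. As a share of all counts, which needs no scaling factor, the 40 genes took 0.575% (exact 95% interval 0.572% to 0.577%, for counting error only) and 0.567% with BMS-582949, against 0.905% and 0.926% with DMSO.

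**Figure D1:**
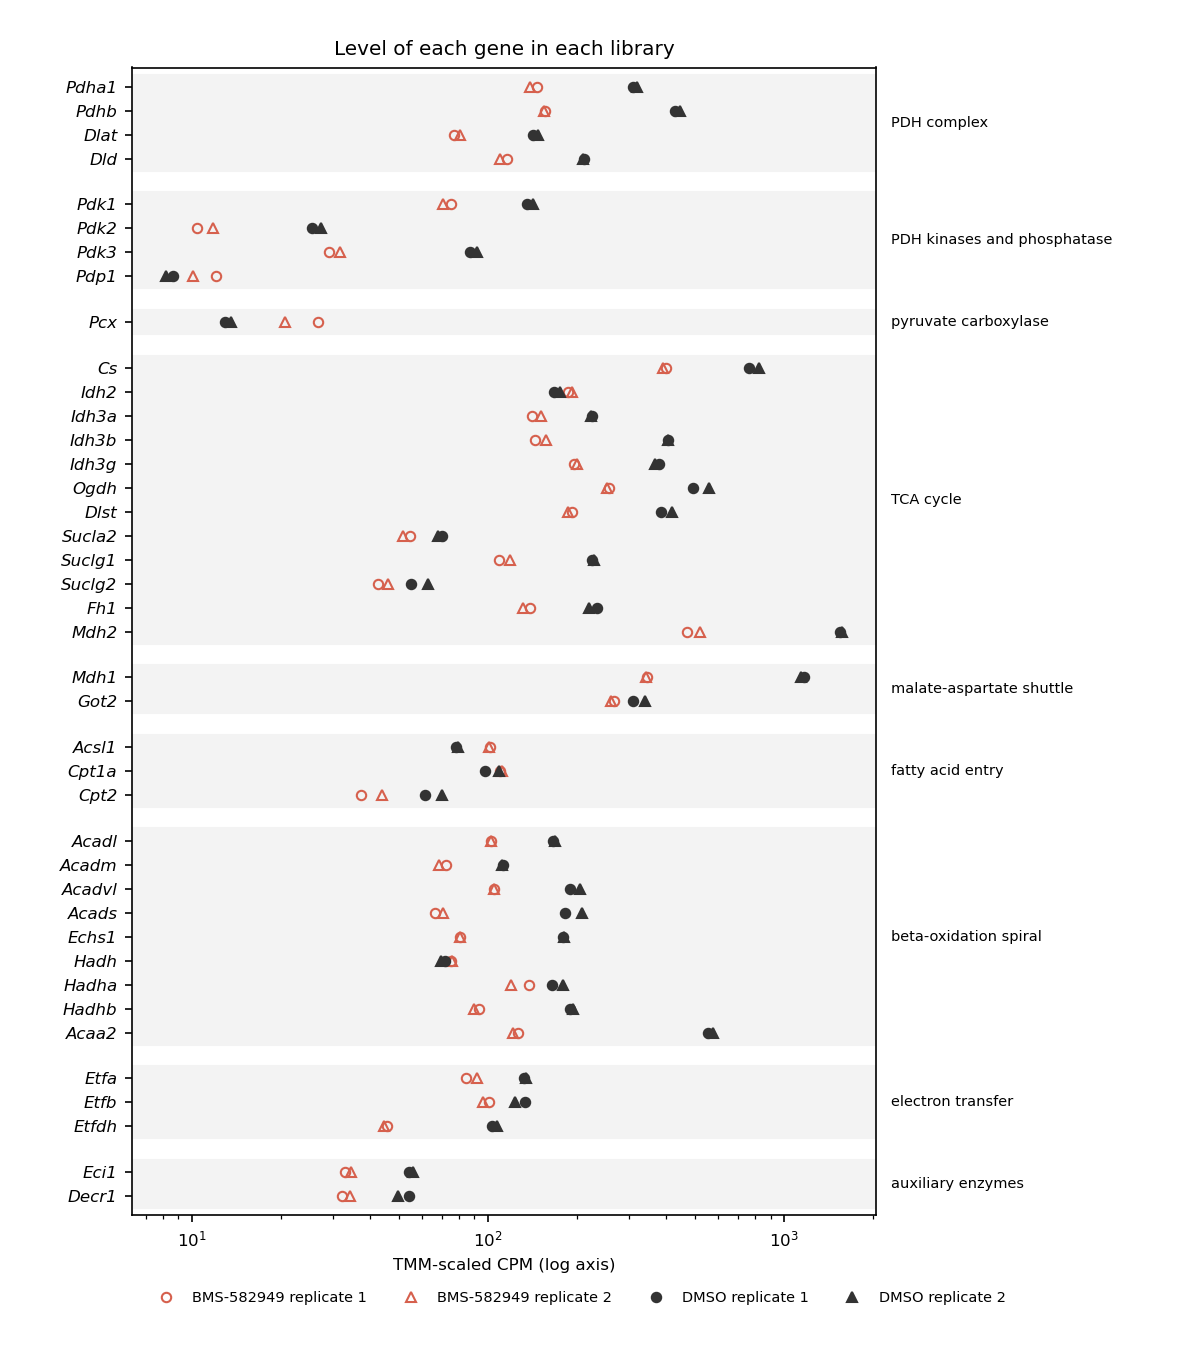
TMM-scaled CPM of the 40 genes, grouped by role, in the 2 BMS-582949 libraries (open red symbols) and the 2 DMSO libraries (filled dark symbols), on a log axis. The red symbols lie to the left for 34 genes, and the widest gap is that of Acaa2, at 126 and 122 CPM with BMS-582949 against 552 and 573 CPM with DMSO.

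**Figure D2:**
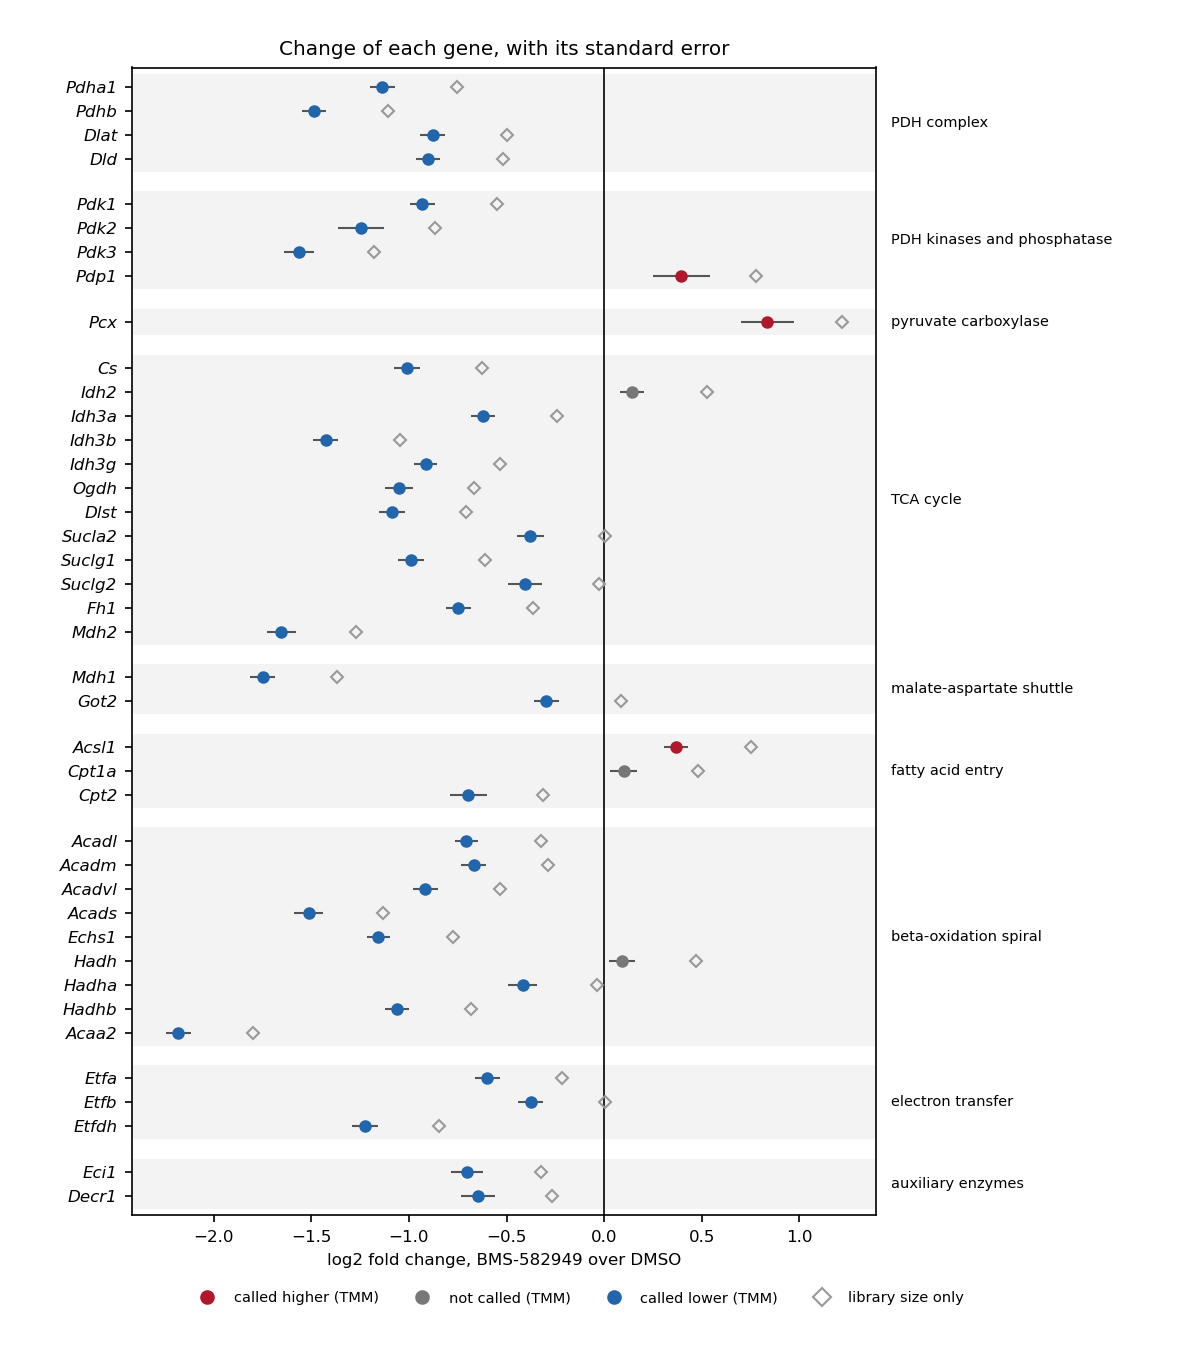
Log2 fold change of each gene, BMS-582949 over DMSO, with its standard error as a bar (TMM scaling, coloured by call) and the value scaled by library size only (open diamonds). All 3 red points, Pdp1, Pcx and Acsl1, lie right of 0, and the diamonds of Sucla2, Got2 and Etfb lie at or right of 0 although their TMM values lie left of it.

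The pyruvate dehydrogenase complex fell in all 4 of its subunits on the list. Pdhb, the beta subunit of the E1 decarboxylase (chromosome 14, 8165996 to 8173025, GRCm38), had 156 and 155 CPM with BMS-582949 and 427 and 444 CPM with DMSO, a log2 fold change of -1.49 ± 0.06 (SE, edgeR adjusted p = 9.7e-10). Its partner Pdha1, the alpha subunit, had 147 and 139 CPM against 310 and 319 CPM (-1.14 ± 0.06). About 16.1% of the exon length of Pdha1 overlaps Map3k15 on the other strand, and whether counting used strand is not given in the sources used here. Dlat, the E2 acetyltransferase, had 77.0 and 80.5 CPM against 142 and 148 CPM (-0.88), and Dld, the E3 dehydrogenase that this complex shares with the 2-oxoglutarate complex, had 116 and 109.5 CPM against 211 and 210.1 CPM (-0.90). The replicates of a group lay close together in each case, and the fold changes of the E1 genes were the larger ones, a difference that was not tested.

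Among the regulators of the complex are kinases, which switch it off by phosphorylating E1, and phosphatases, which switch it back on. All 3 kinase genes on the list fell. Pdk3 changed most, with 29.2 and 31.6 CPM with BMS-582949 against 87.1 and 92.1 CPM with DMSO (-1.56 ± 0.08, SE, edgeR adjusted p = 4.2e-09). The values of Pdk1, a target of the hypoxia response, were 74.8 and 70.8 CPM against 136 and 142 CPM (-0.93 ± 0.06). Pdk2 had 10.4 and 11.8 CPM against 25.5 and 27.2 CPM (-1.25 ± 0.12). Pdp1, a catalytic subunit of the phosphatase, was higher at 12.05 and 10.1 CPM against 8.65 and 8.18 CPM (0.40 ± 0.15, edgeR adjusted p = 0.033). That call was weak: without BMS-582949 replicate 1 the change was 0.26 (adjusted p = 0.28), without DMSO replicate 2 it was 0.36 (adjusted p = 0.082), with DESeq2 it was 0.37 (adjusted p = 0.15), and with the trend on GC content and exon length removed it was 0.21 (adjusted p = 0.25). The other genes of the phosphatase, named after their values were seen, were not called higher. Pdp2, the other catalytic subunit, fell to 9.59 and 11.1 CPM with BMS-582949, against 13.9 and 14.2 CPM with DMSO (-0.44 ± 0.13, SE, edgeR adjusted p = 0.010). That fall depends on the scaling, since with library size only the median of all genes moved from 0.03 to 0.41, a shift near its size. Pdpr, the regulatory subunit, had 6.90 and 3.57 CPM against 7.24 and 8.94 CPM and was not called (-0.63 ± 0.26, edgeR adjusted p = 0.054).

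Pyruvate carboxylase, which refills the cycle with oxaloacetate, moved against the dehydrogenase. Pcx (chromosome 19, 4510472 to 4621752) had 26.7 and 20.7 CPM with BMS-582949 and 12.96 and 13.6 CPM with DMSO, a log2 fold change of 0.84 ± 0.14 (SE, edgeR adjusted p = 1.8e-04). It was the largest rise of the 40 genes. Both BMS-582949 libraries lay above both DMSO libraries, although they differed from each other more than the DMSO pair did, and the change stayed between 0.64 and 1.22 over the 14 alternatives.

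Of 12 TCA cycle genes, 11 fell and Idh2 was not called. Cs, citrate synthase, which joins acetyl-CoA to oxaloacetate, had 398 and 388 CPM with BMS-582949 against 762 and 821 CPM with DMSO (-1.01 ± 0.07). Isocitrate is oxidised by 2 mitochondrial enzymes, the NAD-dependent IDH3 of the cycle proper and the NADP-dependent IDH2, and their genes differed. Idh2 had 187 and 192 CPM against 167 and 175 CPM (0.14 ± 0.06, edgeR adjusted p = 0.058). It was called higher when the GC and length trend was removed (0.26), when low counts were kept (0.16), with upper-quartile scaling (0.20) and with library size only (0.53), so its side of the threshold depends on the processing while its sign did not change under any alternative run.

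The 3 subunits of IDH3 all fell, by unequal amounts. Idh3b, one of the regulatory subunits, had 145 and 157 CPM against 406 and 405 CPM (-1.43 ± 0.06, SE, edgeR adjusted p = 2.1e-09). Idh3a, the catalytic subunit, had 140.4 and 151 CPM against 225 and 224 CPM (-0.62 ± 0.06), and Idh3g, the other regulatory subunit, had 195 and 199 CPM against 377 and 366 CPM (-0.91 ± 0.06). Per exon length, Idh3b was at 44.1 RPKM with BMS-582949 and 119 RPKM with DMSO, and Idh3a at 28.7 and 44.2 RPKM in the same order. Idh3g starts back to back with Ssr4, a gene of the endoplasmic reticulum translocon, and the 130 bases between the 2 gene models are shown because they hold the one ETS-type motif found before the start of Idh3g, at 104 bases upstream (RefSeq, GRCm38.p6, chrX:73786898-73787027, minus strand, 5′ to 3′ towards Idh3g, capitals marking CCGGAAG).
Idh3g-Ssr4: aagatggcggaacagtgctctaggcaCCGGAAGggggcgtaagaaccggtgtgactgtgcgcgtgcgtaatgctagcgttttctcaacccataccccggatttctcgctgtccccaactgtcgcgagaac

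Besides the shared Dld, named above, the 2-oxoglutarate dehydrogenase complex fell in both of its other subunits on the list. Ogdh, its E1 decarboxylase, had 256 and 251 CPM with BMS-582949 against 492 and 558 CPM with DMSO (-1.05 ± 0.07), and Dlst, the E2 succinyltransferase, had 192 and 186 CPM against 385 and 417 CPM (-1.09 ± 0.06). The groups did not overlap for either gene.

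Succinyl-CoA ligase showed a split between its shared and its exchangeable subunits. Suclg1, the alpha subunit common to both forms of the enzyme, had 109 and 119 CPM against 225 and 228 CPM (-0.99 ± 0.06). Sucla2, the beta subunit of the ADP-forming enzyme, had 54.4 and 51.8 CPM against 70.0 and 68.0 CPM (-0.38 ± 0.07), and Suclg2, the beta subunit of the GTP-forming enzyme, had 42.5 and 46.1 CPM against 54.9 and 62.6 CPM (-0.41 ± 0.09). Scaling decides both of these smaller falls, since with library size only Sucla2 was at 0.004 and Suclg2 at -0.02 and neither was called.

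At the end of the cycle, Fh1, fumarase, had 138 and 131 CPM with BMS-582949 against 233 and 219 CPM with DMSO (-0.75 ± 0.06). Mdh2, the mitochondrial malate dehydrogenase (chromosome 5, 135778480 to 135790398), had 469 and 519 CPM against 1537 and 1569 CPM (-1.65 ± 0.07, SE, edgeR adjusted p = 1.6e-09). No other of the 12 cycle genes on the list had so large a change.

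The malate-aspartate shuttle carries the reducing equivalents of cytosolic NADH into mitochondria. Mdh1, the cytosolic malate dehydrogenase of the shuttle (chromosome 11, 21556787 to 21572367), had 345 and 341 CPM with BMS-582949 and 1165 and 1141 CPM with DMSO, a log2 fold change of -1.75 ± 0.06 (SE, edgeR adjusted p = 4.0e-10). Got2, the mitochondrial aspartate aminotransferase, had 266 and 261 CPM against 308 and 338 CPM (-0.30 ± 0.06, edgeR adjusted p = 0.0017), and its sign turned when nothing but library size was scaled (0.09, not called). Mdh1 and Got2 therefore moved by very different amounts, and Mdh1 stayed well below its DMSO level under every alternative run (-1.80 to -1.37). Mdh2, given above with the cycle (-1.65), also serves the shuttle, as does Got1 of the related lists (-1.81). Both of these changes lay near that of Mdh1.

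Fatty acids are activated and imported before they can be oxidised, and the 3 genes of this step on the list had different calls. Acsl1, a long-chain acyl-CoA synthetase, rose to 102 and 101 CPM with BMS-582949, against 77.8 and 79.5 CPM with DMSO (0.37 ± 0.06, SE, edgeR adjusted p = 2.6e-04), and it was called higher under all 14 alternatives (0.20 to 0.75). Cpt1a, the outer membrane carnitine palmitoyltransferase that controls entry, had 109.6 and 112 CPM against 97.6 and 109 CPM (0.10 ± 0.07, edgeR adjusted p = 0.23). It was called higher with upper-quartile scaling (0.16) and library size only (0.48). Cpt2, the inner membrane enzyme that reforms acyl-CoA in the matrix, fell to 37.2 and 43.8 CPM, against 61.2 and 70.0 CPM (-0.70 ± 0.10, edgeR adjusted p = 4.7e-05). The entry step thus held one gene called higher, one not called and one called lower.

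Of the 9 genes of the beta-oxidation spiral, 8 fell and Hadh was not called. The acyl-CoA dehydrogenases take the first step for chains of decreasing length. Acadvl, for very long chains, had 105 and 104 CPM with BMS-582949 against 190 and 205 CPM with DMSO (-0.92 ± 0.06), but 42.9% of its exon length overlaps Dvl2 on the other strand. Acadl, for long chains, had 102 and 103 CPM against 166 and 169 CPM (-0.71 ± 0.06), and Acadm, for medium chains, had 72.2 and 68.5 CPM against 112 and 111 CPM (-0.67 ± 0.06). Acads, for short chains, fell furthest of these 4, with 66.3 and 70.3 CPM against 182 and 208 CPM (-1.51 ± 0.08, SE, edgeR adjusted p = 4.6e-09).

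The later steps diverged from each other. Echs1, the short-chain enoyl-CoA hydratase, had 80.7 CPM in both BMS-582949 libraries against 179 and 181 CPM with DMSO (-1.16 ± 0.06). Hadh, the 3-hydroxyacyl-CoA dehydrogenase for medium and short chains, had 74.8 and 75.7 CPM against 71.6 and 69.5 CPM (0.09 ± 0.07, edgeR adjusted p = 0.25), and it was called higher with library size only (0.47). Acaa2, the thiolase that closes the round, had 126 and 122 CPM against 552 and 573 CPM (-2.18 ± 0.06, SE, edgeR adjusted p = 8.4e-11). That fall, a fold of 0.2203 over DMSO, was the largest of the 40 genes, and 3.496% of all genes tested had a lower fold change.

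Hadha and Hadhb encode the alpha and beta subunits of the mitochondrial trifunctional protein, which handles long chains at the inner membrane. They lie head to head on chromosome 5, Hadha at 30118304 to 30155162 on the minus strand and Hadhb at 30155248 to 30184593 on the plus strand, with 85 bases between the GENCODE models. Although they are built into one enzyme and share this stretch, they changed unequally. Hadha had 137 and 119.8 CPM with BMS-582949 against 164 and 179 CPM with DMSO (-0.42 ± 0.08), and with library size only it was at -0.04 and not called. Hadhb had 93.5 and 89.8 CPM against 189 and 193 CPM (-1.06 ± 0.06, SE, edgeR adjusted p = 1.7e-08). The bases between them are shown because both GENCODE models start at its edges, the RefSeq starts being 273 bases apart (RefSeq, GRCm38.p6, chr5:30155163-30155247, plus strand, 5′ to 3′ towards Hadhb, capitals marking its 9 CG dinucleotides).
Hadha-Hadhb: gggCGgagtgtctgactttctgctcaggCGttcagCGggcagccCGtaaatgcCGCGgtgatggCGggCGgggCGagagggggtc

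Electrons of the acyl-CoA dehydrogenases pass to the electron transfer flavoprotein and from it to ubiquinone. Etfdh, the dehydrogenase that hands them to ubiquinone, fell to 45.5 and 44.7 CPM with BMS-582949, against 104 and 108 CPM with DMSO (-1.23 ± 0.07, SE, edgeR adjusted p = 1.0e-08). The flavoprotein subunits changed less, Etfa with 84.5 and 91.98 CPM against 132 and 135 CPM (-0.60 ± 0.07) and Etfb with 101 and 96.6 CPM against 133 and 124 CPM (-0.38 ± 0.07). Of the exon length of Etfb 58.2% overlaps another gene model, Gm45233, on the same strand. The Etfb call was lost with the GC and length trend removed (-0.14, adjusted p = 0.074), and its sign turned with library size only (0.005). Auxiliary enzymes that prepare unsaturated chains fell too. Eci1, an enoyl-CoA isomerase, had 32.9 and 34.6 CPM against 54.1 and 55.9 CPM (-0.70 ± 0.08), and Decr1, the 2,4-dienoyl-CoA reductase, had 32.2 and 34.2 CPM against 54.2 and 49.8 CPM (-0.65 ± 0.09).

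By role, the 9 genes of pyruvate entry had 7 lower and 2 higher calls (median log2 fold change -0.93). The 14 genes of the TCA cycle and shuttle had 13 lower and 0 higher (median -0.95). Those of fatty acid oxidation, 17 genes, had 14 lower and 1 higher (median -0.70). The difference between these medians was not tested. Of all genes tested 29.7% were called lower and 30.5% higher (median 0.03), shares that go beside every role count above. With library size only, the lower and higher calls were 7 and 2, 10 and 1, and 12 and 3 in that order. The shares of all genes were then 17.0% and 51.0%.

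Ratios of raw counts between genes of one library do not depend on library scaling, and 12 of them are given as a description. The pairs were chosen after the counts were seen, from genes with unequal fold changes, so that the groups lie apart is a matter of that choice and was not tested. The count of Pdp1 per count of Pdk1, Pdk2 and Pdk3 together was 0.105 and 0.0884 with BMS-582949 against 0.0348 and 0.0313 with DMSO. Pcx per count of the 4 pyruvate dehydrogenase genes was 0.0539 and 0.0428 against 0.0119 and 0.0121. Idh2 per count of the 3 Idh3 genes was 0.389 and 0.379 against 0.166 and 0.176. The first ratio leaves out Pdp2, which was called lower with TMM scaling, and Pdk4, whose log2 fold change was -0.01.

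Other ratios compare subunits or steps of one pathway. Idh3b per Idh3a was 1.03 and 1.04 with BMS-582949 against 1.81 and 1.81 with DMSO, and Hadha per Hadhb was 1.47 and 1.33 against 0.869 and 0.926. Acaa2 per Hadh, 2 successive steps of one round, was 1.68 and 1.61 against 7.71 and 8.24. The other 6 ratios (Pdhb per Dlat, Suclg1 per its beta subunits, Mdh2 per Cs, Got2 per Mdh2, Cpt1a per Cpt2 and Etfdh per Etfa) also had no overlap between groups, and their log2 difference ran from -0.65 to 1.36.

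**Figure D3:**
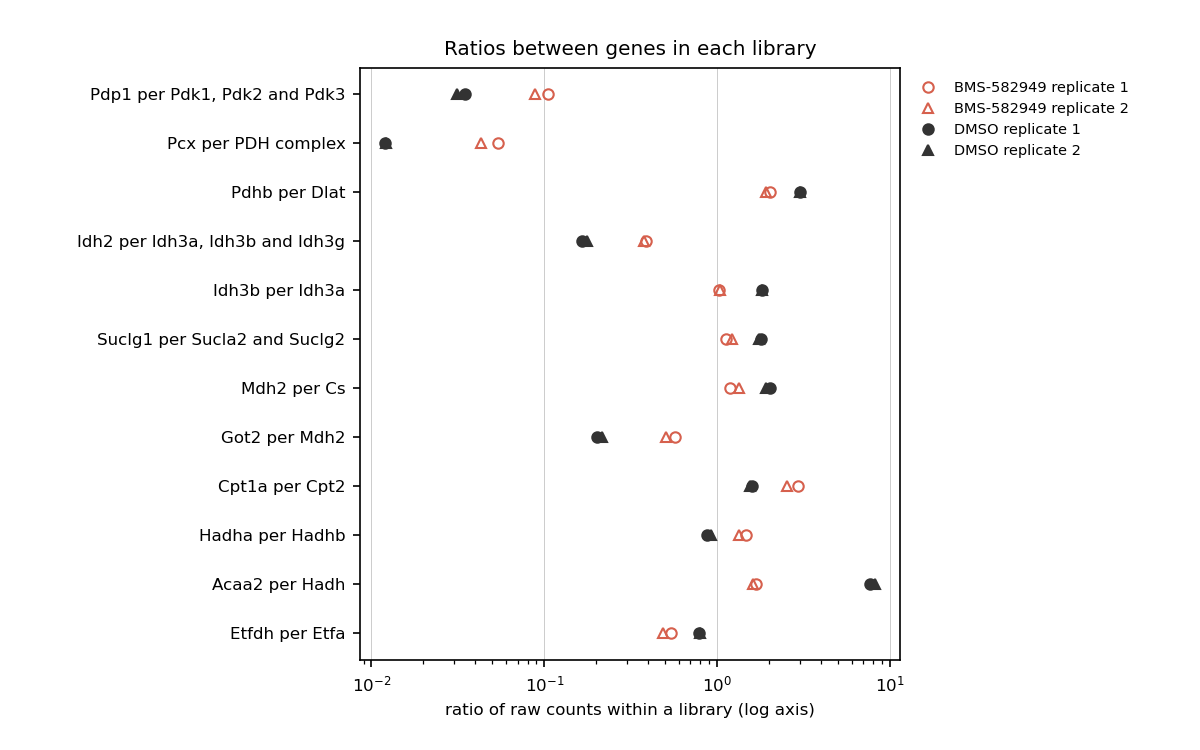
Ratio of raw counts between genes, or sums of genes, in each of the 2 BMS-582949 libraries (open red symbols) and 2 DMSO libraries (filled dark symbols), on a log axis. The pairs were chosen after the counts were seen, and the widest gap is that of Acaa2 per Hadh (1.68 and 1.61 against 7.71 and 8.24).

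Levels between genes were compared per kilobase of annotated exon (RPKM from TMM-scaled CPM). That length is the union of all annotated exons of a gene, so the level of a gene with exons not in use is understated. Ranks between genes, and the trend with level below, share this limit. In the DMSO libraries the highest were Mdh1 at 449 ± 6.84, Mdh2 at 436 ± 6.36 and Acaa2 at 371 ± 9.70 RPKM (SD, n = 2), and the 3 members called higher were among the lowest, with Pdp1 at 1.87 ± 0.07, Pcx at 2.79 ± 0.09 and Acsl1 at 7.498 ± 0.11 RPKM. With BMS-582949 Mdh2 and Mdh1 were still highest, at 139 ± 9.90 and 134 ± 1.13 RPKM, which do not differ beyond their spread, and Etfb (84.9 ± 2.78) and Acaa2 (81.7 ± 1.91) followed. The 40 genes spanned 2.46 to 139 RPKM with BMS-582949 and 1.87 to 449 RPKM with DMSO, and the median was 22.2 against 43.1 RPKM.

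Across the 40 genes, the log2 fold change ran against the log2 level with DMSO (Pearson r = -0.69, Spearman rho = -0.55). This is a description across genes of the same 4 libraries, and both axes use the DMSO values. Over the 12606 annotated genes tested r was -0.21, and over the 8102 of them within the members' range of levels it was -0.25. That range starts at 1.87 RPKM, and the median with DMSO was 43.1 RPKM for the members but 4.14 RPKM for all annotated genes tested. The 8102 genes are therefore not matched to the members by level. Among those 8102 genes 38.4% were called lower and 31.7% higher, with a median log2 fold change of -0.05. GC content showed no such trend over the 40 genes (r = 0.04), and exon length a weak one (r = 0.26).

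**Figure D4:**
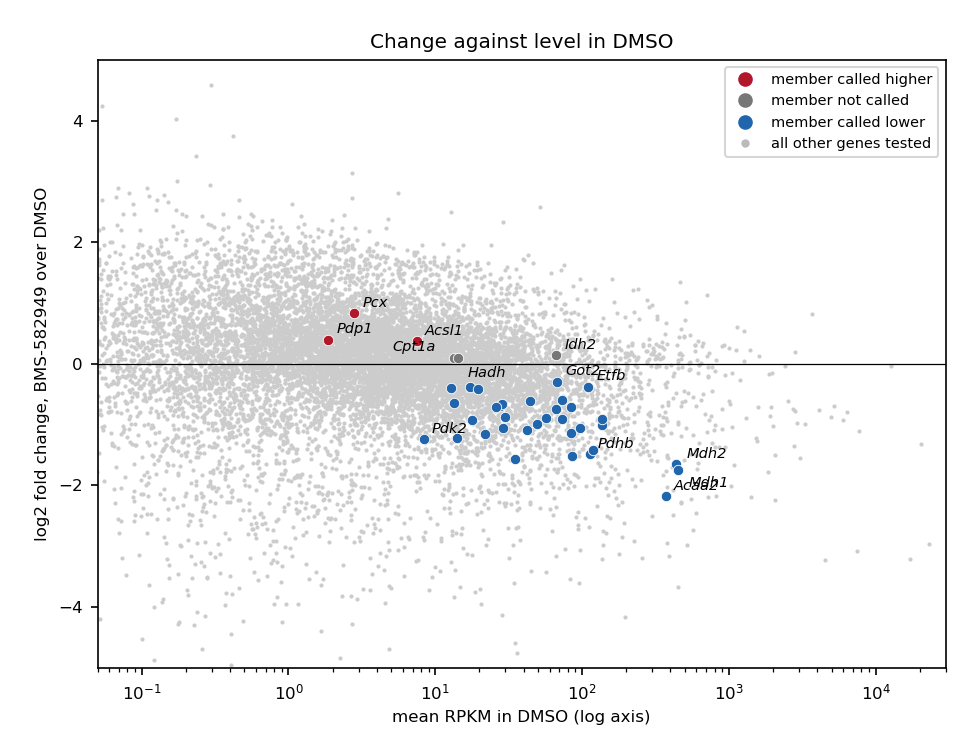
Log2 fold change, BMS-582949 over DMSO, against mean RPKM with DMSO (log axis), for the 40 genes (coloured by call) over all other annotated genes tested (grey, with a few beyond the axis limits not shown). Mdh1, Mdh2 and Acaa2, the highest with DMSO, lie at the lower right, and Pdp1, Pcx and Acsl1 at the left above 0.

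Other genes of the same pathways were followed in 6 lists of 86 genes, of which 82 had enough counts. Of these 48 were called lower and 18 higher, where 29.7% and 30.5% of all genes tested were. Those shares also go beside the counts of each list below, and with library size only they were 17.0% and 51.0%. The rest of the TCA cycle and its exchange with the cytosol had 12 lower and 4 higher of 19 (11 and 7 with library size only, median -0.34). Got1, the cytosolic aspartate aminotransferase, had 64.2 and 64.3 CPM with BMS-582949 against 222 and 228 CPM with DMSO (-1.81). The rises were led by Me1, malic enzyme, with 37.6 and 40.2 CPM against 27.6 and 26.8 CPM (0.52), and Slc25a10, the dicarboxylate carrier (0.41). Acod1, which makes itaconate from the cycle's aconitate in macrophages, had 25 and 38 counts against 12 and 3 counts and was not called (edgeR adjusted p = 0.070). Without DMSO replicate 1 it was called, at 2.89 (adjusted p = 0.033), and it was called also with library size only (1.95).

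Of the 11 neighbours of pyruvate dehydrogenase 7 were called lower and 0 higher (5 and 1 with library size only, median -0.24). Mpc2, a subunit of the mitochondrial pyruvate carrier, had 41.4 and 42.7 CPM with BMS-582949 against 160 and 144 CPM with DMSO (-1.86), and Ldhb, a lactate dehydrogenase subunit, had 32.1 and 32.9 CPM against 220 and 218 CPM (-2.75). Pdk4, the kinase not on the list of 40, had 9.29 and 6.83 CPM against 8.91 and 7.32 CPM, with overlapping groups (-0.01, edgeR adjusted p = 0.97). It did not share the values of Pdk1, Pdk2 and Pdk3, though the difference between the kinases was not tested.

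In the list named the rest of mitochondrial fatty acid oxidation 13 of 16 fell and 1 rose (11 and 2 with library size only, median -0.47). Among the 13 is Acacb (-1.38), named after its value was seen, an acetyl-CoA carboxylase and not an oxidation enzyme. Its counts were low, 26 and 20 with BMS-582949 against 32 and 54 with DMSO. Acad10, of the acyl-CoA dehydrogenase family, had 7.52 and 6.19 CPM with BMS-582949 against 50.8 and 51.3 CPM with DMSO (-2.89), and Cpt1c, the carnitine palmitoyltransferase known from neurons, had 1.55 and 1.73 CPM against 7.69 and 8.91 CPM (-2.34). Acsl5, another acyl-CoA synthetase, rose by 0.36, while Acsl3 (-1.31) and Acsl4 (-0.30) of the same family fell, as did Slc25a20, the carnitine-acylcarnitine carrier of the inner membrane (-0.74). The last 3 are named after their values were seen. The fall of Acsl4 is smaller than the shift of all genes with library size only, where their median moved from 0.03 to 0.41. Peroxisomal fatty acid oxidation had 6 lower and 2 higher of 11 (4 and 3 with library size only, median -0.10). Crot was at -1.41, Ehhadh at -1.14 and the transporter Abcd2 at 1.39. Counts for Abcd2 were 284 and 230 with BMS-582949 and 55 and 85 with DMSO.

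Genes of fatty acid uptake and release moved both ways, 4 higher and 5 lower of 11 (median -0.18), where 30.5% and 29.7% of all genes tested were, so that the counts lie near those of all genes. Lipa, the lysosomal acid lipase, rose to 1042 and 1026 CPM with BMS-582949, against 498 and 546 CPM with DMSO (0.99), and Fabp5, a fatty acid binding protein, to 342 and 370 CPM against 198 and 198 CPM (0.84). Pnpla2, the lipase of lipid droplets, fell by 0.86 and the transporter Slc27a1 by 0.64 on the log2 scale. With library size only, 6 were higher and 2 lower (median 0.20). Without BMS-582949 replicate 1, or without DMSO replicate 2, 3 were called lower, as with upper-quartile scaling.

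Regulators of mitochondrial and fatty acid genes had 7 higher and 5 lower calls of 14 tested (median 0.39), where 30.5% and 29.7% of all genes tested had such calls. The median depends on the processing, at 0.20 with DESeq2, 0.23 with the GC and length trend removed, 0.24 with no low-count filter and 0.77 with library size only. Ppargc1b, the coactivator PGC-1β, had 4.66 and 6.07 CPM with BMS-582949 against 17.7 and 19.4 CPM with DMSO (-1.79 ± 0.15, SE, edgeR adjusted p = 5.7e-07). Esrra, the nuclear receptor ERRα with which it works, had 57.5 and 54.2 CPM against 118 and 123 CPM (-1.11 ± 0.07). Sirt3, the mitochondrial deacetylase, had 8.22 and 10.2 CPM against 26.8 and 30.4 CPM (-1.63), though 12.7% of its exon length overlaps another model. The rises were led by Gabpa (0.74) and Nrf1 (0.66), transcription factors of nuclear genes for mitochondrial proteins. Ppara had 0 counts in both BMS-582949 libraries and 6 and 0 counts with DMSO, too few to test. Ppargc1a and Esrrg, named here after their values were seen, had 0 counts in every library, which allows up to 3 counts in each.

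**Figure D5:**
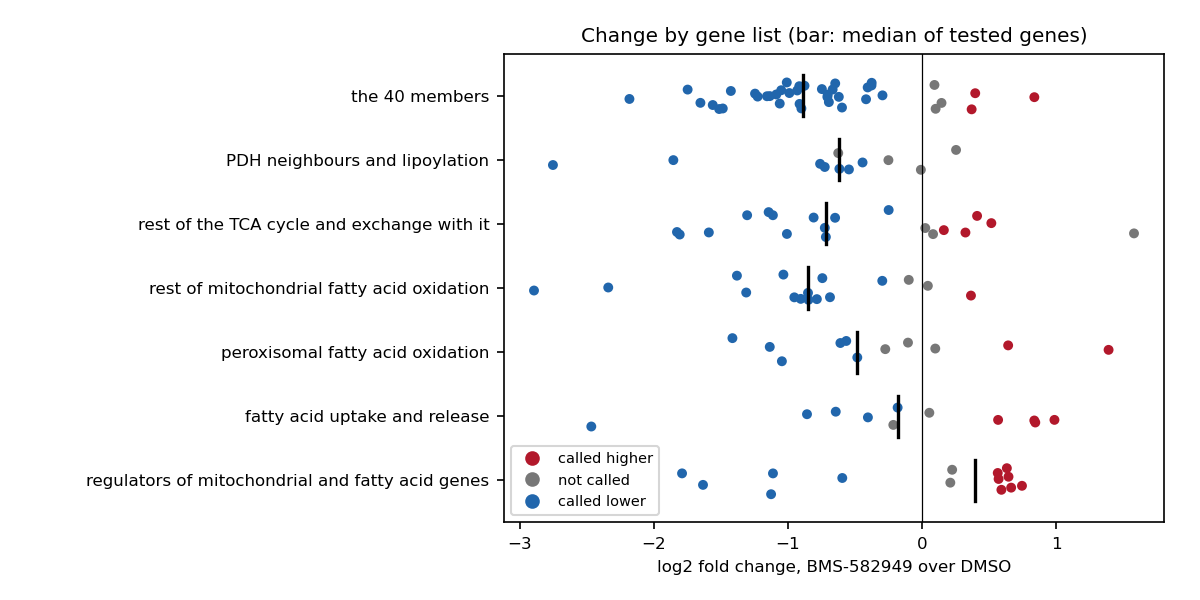
Log2 fold change, BMS-582949 over DMSO, of every tested gene in the 40 members and the 6 related lists, coloured by call, with the median of each list as a bar. The bars lie left of 0 for the members and 5 lists and right of 0 for the regulators (0.39).

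Promoter windows of 300 bases, 250 before and 50 after a RefSeq start on GRCm38.p6, were at hand for 36 of the 40 genes (45 windows), and not for Pdp1, Idh3a, Acaa2 and Decr1. Both strands were searched for 4 motifs, of which the first and second share the letters AGGTCA. The element of estrogen-related receptors, TNAAGGTCA, was in 0 of the 45 windows and in 1.28% of all 32851 windows of the table. The direct repeat read by PPAR and RXR, searched as 2 copies of AGGTCA with 1 base between them, was in 0 windows of the members and in 0.04% of all. The NRF1 motif was in 4 windows (8.89%, of Dld, Etfb, Etfdh and Sucla2) and in 4.603% of all, and the ETS motif CCGGAAG was in 4 (8.89%, of Cpt2, Dlst, Idh3b and Idh3g) and in 8.86% of all. A match describes the letters in the window only.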

How the data were processed

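The authors deposited a table of raw counts per gene model, whole numbers with unequal column sums. Per the submitters' processing notes, Trimmomatic 0.36, HISAT2 2.0.4 and DESeq2 1.30.1 were used with GRCm38, with no roles given. The counting tool, the annotation and the use of strand were not given in the sources used here. Columns were matched to samples by name, and groups come from the treatment label, since the treatment protocol names the compound for all samples and the titles transpose its digits. The sources give 3 or 4 days of compound.

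Symbols, exon lengths and coordinates came from GENCODE M21 (GRCm38), which matched 22022 models. The test was that of edgeR 4.0.16 in R 4.3.3: filterByExpr (minimum count 10), TMM, and the quasi-likelihood F test of BMS-582949 against DMSO over all 13214 genes left, with 2 residual degrees of freedom and a Benjamini-Hochberg adjusted p under 0.05. In this test the variability of each gene is estimated with help from all genes. The p-values and standard errors therefore do not rest on those 2 degrees of freedom alone. The standard error is the absolute log2 fold change over the square root of F. The procedure was tested on simulated data. Depth was 35331889 to 39255925 counts per library. Replicates differed by more than counting noise (chi-square over its degrees of freedom 13.7 in the BMS-582949 pair and 9.62 in the DMSO pair), so they are not one library deposited again and were counted separately, which does not tell whether they are biological replicates.

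The members and lists were chosen with earlier results of these data known. Every member is named, with values in each library for those of the 3 largest changes per role, called higher, not called, or fixed by name. Of the related lists, up to 2 called genes per direction whose mean reached 1 CPM, and 6 fixed genes, are named, except 2 that are not reported here. Alternatives were other scalings, filters and thresholds, DESeq2 1.42.0, limma-voom (limma 3.58.1), a replicate block, a loess correction (span 0.3) for GC content and length, and leaving out each library.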

Additional observations from a re-analysis of the deposited data

How the results depend on the processing

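Of the 40 genes, 31 kept their direction and their side of the threshold under all 14 alternatives (29 called lower, and Pcx and Acsl1 called higher). The 9 others were Pdp1, Idh2, Sucla2, Suclg2, Got2, Cpt1a, Hadh, Hadha and Etfb. With library size only, Sucla2 (0.00393), Got2 (0.0863) and Etfb (0.00515) changed sign, all genes had 6738 higher and 2240 lower calls in place of 4035 and 3919, and the members had 6 higher calls with a median of -0.51. Upper-quartile scaling gave the members 5 higher calls and a median of -0.83. At a log2 fold change of at least 1, all genes had 1314 higher and 1499 lower calls and the members 0 higher and 15 lower. In edgeR 4 members were higher at an unadjusted p under 0.05, 0 of them by that much, and DESeq2 gave 0. Leaving out each library in turn left 34 members lower each time and 2 to 3 higher, with medians of -0.90 to -0.85. Pdk4, not called, changed sign with upper-quartile scaling (0.0477), library size only (0.37) and no filter (0.00772), and over the fits without one library it ran from -0.25 to 0.17. Replicate numbers are shared by the groups, but nothing in the labels says that they pair the libraries, and deviations correlated at only -0.08. The fit with the replicate block gave 3923 higher and 3830 lower calls, the same call for all 40 members and a median of -0.89. The cause of these differences was not tested. With 2 libraries a group, the spread between libraries limits precision more than depth does for genes at these counts.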
